A study of Mus musculus with 13 samples.

Results

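The genes described are 32 genes of glucose use, taken by name: 3 glucose transporters (Slc2a1, Slc2a3, Slc2a6), the enzymes of glycolysis from hexokinase to pyruvate kinase, the 4 enzymes that set fructose 2,6-bisphosphate (Pfkfb1 to Pfkfb4), both lactate dehydrogenase genes, 2 lactate transporters (Slc16a1, Slc16a3), 3 pyruvate dehydrogenase kinases (Pdk1 to Pdk3) and the hypoxia-inducible factor gene Hif1a. Names were matched to the Ensembl gene IDs of the files through the GENCODE M21 annotation. All 32 names were found, in 33 of the 54532 rows, because Aldoa has a pair of gene models. The second Aldoa model stayed at or below 2.14 CPM (counts scaled to each library total) in every library and is not counted among the 32.

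RNA came from sorted natural killer (NK) cells of C57BL/6J mice aged 8 to 10 weeks. LrNK cells are liver-resident NK cells, labelled as liver lymphocytes, and cNK cells are conventional NK cells, labelled as splenocytes, so cell type and organ cannot be told apart. Each cell type was taken from wild type (WT) mice and from mice with the genotype label CD8KO, which the design text calls CD8-/-, and the series title places the study in the question of how CD8+ T cells bear on the maturation of LrNK cells. Of the 13 libraries, LrNK gave 4 from WT mice and 3 labelled CD8KO, and cNK gave 3 of each. The labels give no surface markers for the sort and do not say whether libraries of a group came from separate animals, so p-values measure the spread between these samples, which may be technical.

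Library totals ran from 30578631 to 47655853 counts in LrNK and from 48600875 to 72716020 in cNK. LrNK WT replicates 2 and 4, and replicates 2 and 3 of LrNK labelled CD8KO, differed so much less than the other libraries of their group that each pair was summed and counted as 1 sample, which leaves 3, 2, 3 and 3 samples. LrNK WT replicates 1 and 3 and replicate 1 of LrNK labelled CD8KO had 13917 to 15797 genes with a count, against 19896 to 22921 in the other 10 libraries, and are called the libraries with few detected genes. Transcripts of Cd8a, the gene of the CD8 alpha chain, were not lost under the CD8KO label: they stood at 20.1 to 20.5 CPM in LrNK WT and 41.6 to 43.7 CPM in LrNK labelled CD8KO, and at 0.561 to 0.578 CPM in cNK WT and 85.9 to 109 CPM in cNK labelled CD8KO. The labels do not say which stretch of DNA was removed, so the genotype is given below as a label only. Resident-cell markers summed to 787.6 to 1694 CPM in LrNK and 85.35 to 121.6 CPM in cNK, and Eomes, a factor of conventional NK cells, was at 640 CPM or more in cNK and below 10 CPM in LrNK.

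Glycolysis splits glucose into pyruvate in the cytosol. Hexokinase traps glucose as glucose 6-phosphate, phosphofructokinase makes the committed step under the control of fructose 2,6-bisphosphate, and lactate dehydrogenase turns pyruvate into lactate, which leaves the cell through monocarboxylate transporters. Pyruvate dehydrogenase kinases hold pyruvate back from the mitochondria. Hif1a is a transcription factor subunit that raises many of these genes in low oxygen or after immune stimulation, and NK cells increase glucose uptake and glycolysis when cytokines activate them.

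Promoter sequences are given for 5 genes with large differences between LrNK and cNK and for Slc2a6, the only member that passed the test between the cNK groups. They are the RefSeq bases upstream of the start site on GRCm38.p6, read 5′ to 3′ on the gene's strand, without bases of any exon annotated in GENCODE M21. Hk2 is shown from chr6:82774455-82774704 (minus strand), Ldhb from chr6:142507958-142508207 (minus), Slc16a3 from chr11:120948817-120949052 (plus), Slc2a6 from chr2:27027999-27028248 (minus), Pfkfb4 from chr9:108991652-108991777 (plus) and Pfkp from chr13:6648778-6649021 (minus). The Slc16a3 stretch lies in an intron of a longer annotated transcript. Capitals mark ACGTG or GCGTG on either strand, the core letters of the element that hypoxia-inducible factors bind.
Hk2: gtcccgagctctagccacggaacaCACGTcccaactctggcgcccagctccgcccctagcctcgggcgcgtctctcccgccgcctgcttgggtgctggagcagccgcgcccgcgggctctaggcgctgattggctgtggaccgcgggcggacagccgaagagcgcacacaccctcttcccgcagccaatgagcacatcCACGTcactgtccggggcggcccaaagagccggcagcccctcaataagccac
Ldhb: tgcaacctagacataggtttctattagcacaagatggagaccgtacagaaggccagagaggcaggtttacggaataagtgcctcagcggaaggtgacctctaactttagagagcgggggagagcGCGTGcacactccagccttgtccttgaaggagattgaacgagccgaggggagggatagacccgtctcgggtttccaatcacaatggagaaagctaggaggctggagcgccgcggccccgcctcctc
Slc16a3: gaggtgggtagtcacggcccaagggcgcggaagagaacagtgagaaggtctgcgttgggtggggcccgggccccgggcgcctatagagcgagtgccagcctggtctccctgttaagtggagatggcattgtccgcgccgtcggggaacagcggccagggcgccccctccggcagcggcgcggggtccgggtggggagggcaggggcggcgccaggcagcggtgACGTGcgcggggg
Slc2a6: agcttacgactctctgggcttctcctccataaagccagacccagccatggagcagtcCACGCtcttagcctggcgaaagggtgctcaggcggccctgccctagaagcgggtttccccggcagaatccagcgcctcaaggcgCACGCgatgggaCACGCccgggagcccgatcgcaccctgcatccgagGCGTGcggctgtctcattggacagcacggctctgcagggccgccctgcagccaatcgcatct
Pfkfb4: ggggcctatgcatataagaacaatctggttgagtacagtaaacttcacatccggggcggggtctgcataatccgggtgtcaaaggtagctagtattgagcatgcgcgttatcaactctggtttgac
Pfkp: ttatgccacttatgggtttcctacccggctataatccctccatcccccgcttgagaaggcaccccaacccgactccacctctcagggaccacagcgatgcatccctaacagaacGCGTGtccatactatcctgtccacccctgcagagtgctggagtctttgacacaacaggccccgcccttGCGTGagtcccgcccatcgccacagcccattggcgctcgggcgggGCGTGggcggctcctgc

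The 6 stretches held 2 such matches for Hk2, 1 for Ldhb, 1 for Slc16a3, 4 for Slc2a6, 0 for Pfkfb4 and 3 for Pfkp, so the gene that was lower in LrNK carried the letters as well. The count for Pfkfb4 and Slc16a3 follows from where the exon cuts the stretch: past it, GCGTG begins at -117 from the Pfkfb4 start site and a second ACGTG at -14 from that of Slc16a3. Among all members, 31 of 32 had a RefSeq promoter entry, with 50 windows of 300 bases (250 before and 50 after a start site), and Slc2a3 had no entry. The letters occurred in 38 of the 50 windows (76.0%) and in 14380 of the 32851 windows of all genes (43.8%). Member windows were richer in CpG (median 17.5 against 7.0), and among windows with 8 to 24 CpG, the interquartile range of the members, the shares were 84.6% (22 of 26) for members and 60.6% for all genes. The E-box CACGTG, which contains the same core, was present in 7 of the 50 member windows and 2349 of the 32851 windows of all genes. Among windows with 8 to 24 CpG it was in 2 of 26 for members and 969 of 9929 for all genes. These matches describe letters only.

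Genes of the lower steps had the highest levels. Per kilobase of annotated exon, Aldoa (aldolase), Gapdh (glyceraldehyde 3-phosphate dehydrogenase), Pkm (pyruvate kinase), Eno1 (enolase), Ldha (lactate dehydrogenase A) and Pgk1 (phosphoglycerate kinase) filled the first 6 ranks in all 4 groups. In LrNK WT the order began with Aldoa at 175 and Gapdh at 163 CPM per kb, and in cNK WT with Eno1 at 110 and Ldha at 96.1 CPM per kb. Hk2 ranked 29 of 32 and Ldhb 31 in cNK WT, at 0.543 and 0.0903 CPM per kb, and ranked 26 and 19 in LrNK WT, at 3.88 and 6.70 CPM per kb. Eno2, the neuronal enolase, was last in all 4 groups. Near-identical copies and pseudogenes that could share reads with the members were low: 16 were listed, the highest being Pgam1-ps2 at up to 7.57 CPM.

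**Figure D1:**
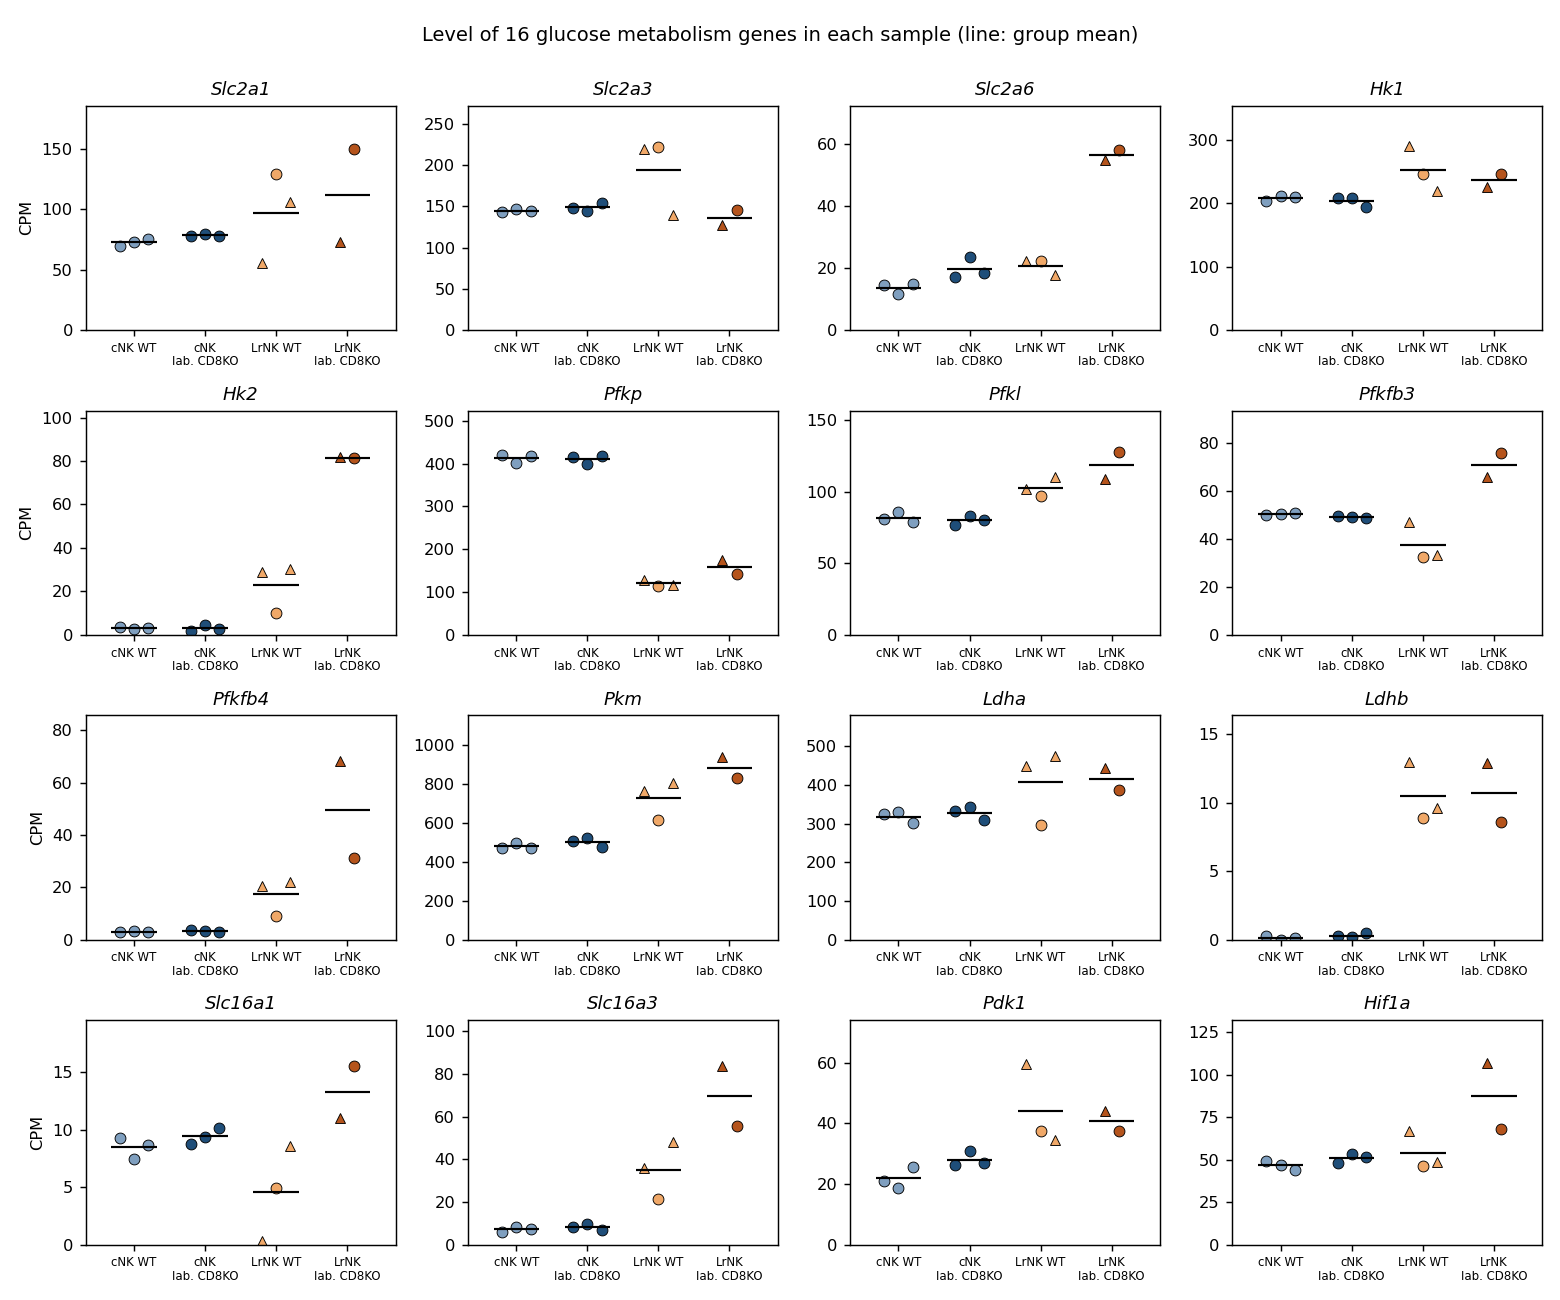
Level of 16 members in CPM (vertical axes, each from 0) in every sample of the 4 groups; lines are group means and triangles are libraries with few detected genes. Hk2, Pfkfb4, Slc16a3 and Ldhb sit near 0 in cNK and higher in all LrNK samples, Pfkp is lower in all LrNK samples, and Hk2, Slc2a6 and Pfkfb3 are higher in both samples of LrNK labelled CD8KO than in any of LrNK WT.

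LrNK was compared with cNK separately under each genotype label. In WT, 12 of 31 members tested were higher in LrNK and 1, Pfkp, was lower (edgeR quasi-likelihood test, Benjamini-Hochberg adjusted p under 0.05 over all genes). That is 38.7% and 3.23% of the members tested, against 10.9% and 9.83% of all 16456 genes tested, and 20.7% of all genes were called in either direction. The median log2 change was 0.51 over the members and -0.08 over all genes. Under the CD8KO label, 19 of 32 members were higher and 2 lower (59.4% and 6.25%), where 15.4% and 11.6% of 17795 genes were called (27.0% either way), and the median log2 change was 0.68 against -0.05. Samples did not overlap for 18 of 31 members in WT (58.1%, 15 above and 3 below), where 48.7% of all genes did not (17.0% above and 31.7% below), and for 26 of 32 under the CD8KO label (81.2%, 22 above and 4 below), where 61.7% did not (23.3% above and 38.4% below). Of the members, 11 were higher under both labels: Hk2, Gpi1, Pfkl, Pfkfb4, Aldoa, Gapdh, Pgk1, Pkm, Ldhb, Slc16a3 and Pdk1. Tpi1 passed in WT only, and Hk3, Slc2a6, Pfkfb3, Aldoc, Pgam1, Eno3, Ldha, Hif1a and, as lower, Pfkfb2 passed under the CD8KO label only, but no member passed the test of the difference between the labels given below.

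How many members were called depended on the samples, and so did the number of all genes called. In WT the count was 7, 8 and 6 without cNK WT replicate 1, 2 or 3, where 1040 of 16963, 1101 of 17084 and 1021 of 17424 genes were called. Leaving out the LrNK libraries with few detected genes leaves a lone LrNK sample, which is assumed to vary as the cNK samples do. The count of that fit is given in the last section, beside that of all genes. Under the CD8KO label the count of members was 10 without any of the 3 cNK samples, where 1688 to 1803 of 17117 to 17453 genes were called. Calls held in all 14 alternatives in WT for 6 members (Hk2, Pfkfb4, Pfkp, Aldoa, Gapdh, Slc16a3) and in all 13 under the CD8KO label for 10 (the same 6 with Hk3, Slc2a6, Pkm and Ldhb). Sorted bulk RNA cannot tell fewer cells of a type from less RNA per cell.

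**Figure D2:**
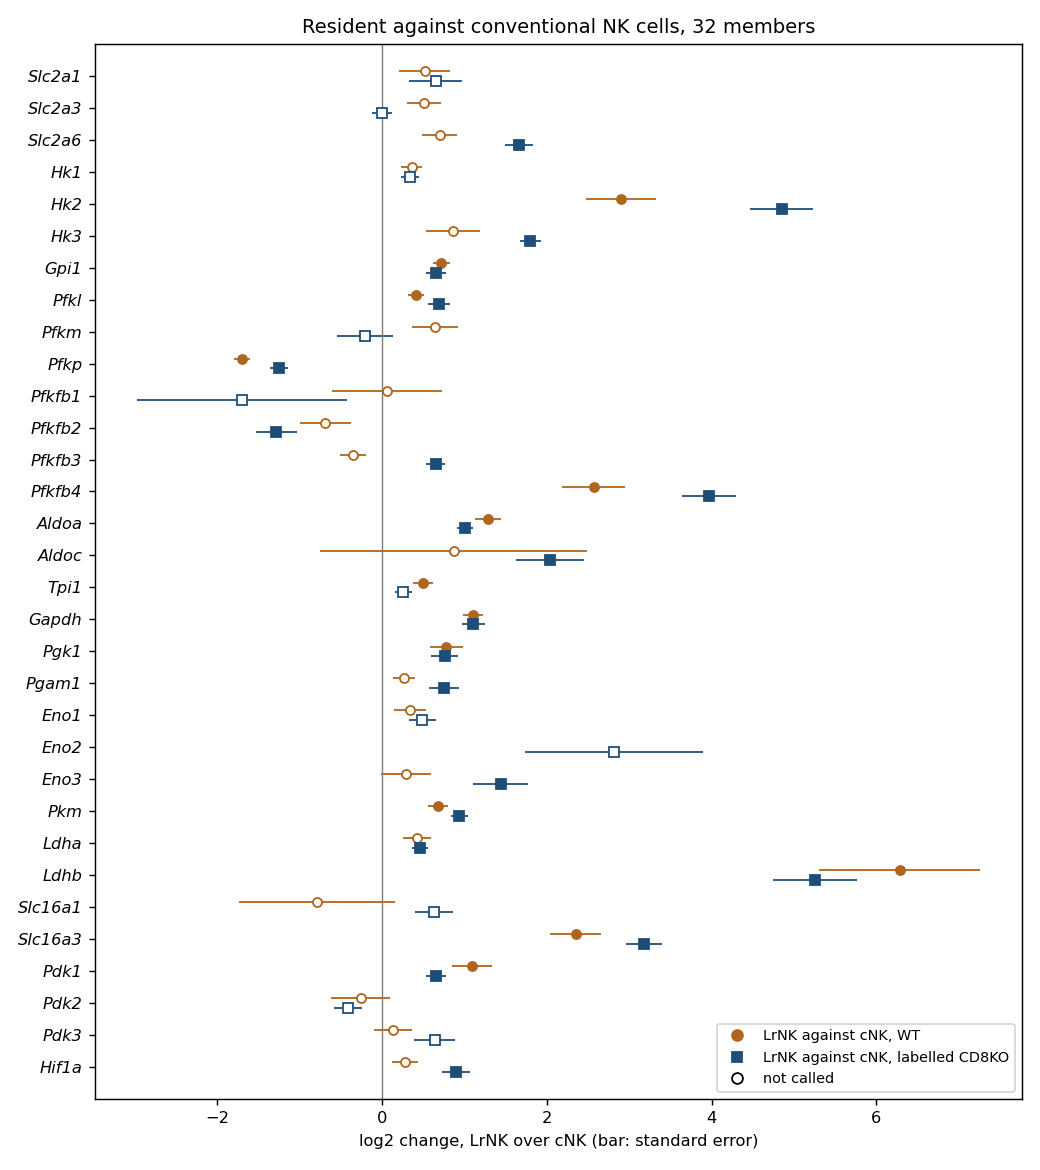
Log2 change of each of the 32 members in LrNK over cNK (horizontal axis), in WT (circles) and under the CD8KO label (squares); filled points passed an adjusted p of 0.05 and bars are standard errors. Ldhb, Hk2, Pfkfb4 and Slc16a3 lie farthest to the right, and Pfkp lies left of 0 under both labels. Eno2 was tested under the CD8KO label only.

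Hexokinase 2 was the hexokinase that differed most. Hk2, the inducible form of the enzyme, was at 29.0, 10.3 and 30.1 CPM in the LrNK WT samples and 82.0 and 81.2 CPM in LrNK labelled CD8KO. In cNK it stood at 3.48, 2.93 and 3.31 CPM in WT and 1.85, 4.61 and 2.78 CPM under the CD8KO label. Every LrNK sample was above every cNK sample, and the log2 change was 2.90 ± 0.42 (SE, adjusted p = 0.00582) in WT, a 7.44-fold difference, and 4.85 ± 0.38 (adjusted p = 0.00113), or 28.8-fold, under the CD8KO label. Its size in WT rested on the libraries with few detected genes, and without them the log2 change of Hk2 was 1.77. Hk1, the widely expressed form, was far more even, at 219 to 290 CPM in LrNK WT, 226 and 246 CPM in LrNK labelled CD8KO and 194 to 212 CPM in cNK. Its LrNK samples lay above the cNK samples under both labels, but the change of 0.36 ± 0.13 in WT and 0.34 ± 0.11 under the CD8KO label did not pass (adjusted p = 0.111 and 0.0785). Hk3, a form known from myeloid cells, was at 39.9, 14.9 and 34.9 CPM in LrNK WT, 59.3 and 45.8 CPM in LrNK labelled CD8KO and 15.7 to 18.7 CPM in cNK. One LrNK WT sample, replicates 2 and 4 summed, lay below all cNK values, and Hk3 passed under the CD8KO label only (1.80 ± 0.13, adjusted p = 0.000866).

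None of the 3 glucose transporters passed in WT. Slc2a1 encodes GLUT1, the basal glucose carrier of most blood cells. It was at 55.7, 129 and 106 CPM in LrNK WT and 73.2 and 150 CPM in LrNK labelled CD8KO, and at 69.2, 73.1 and 75.4 CPM in cNK WT and 77.9, 79.3 and 77.9 CPM in cNK labelled CD8KO. The LrNK values fell on both sides of the cNK values, and neither test passed (adjusted p = 0.315 and 0.191). The result for Slc2a1 moved with single samples: without LrNK WT replicate 1 it was higher in LrNK (0.79, adjusted p = 0.0188). Under the CD8KO label its log2 change was 1.10 without LrNK replicate 1 and -0.06 without the summed LrNK sample. Each of these fits under the CD8KO label leaves a lone LrNK sample and takes its spread from cNK alone, so only the sizes are given. Slc2a3 encodes GLUT3, a carrier of high affinity. It was at 220, 222 and 140 CPM in LrNK WT and 127 and 146 CPM in LrNK labelled CD8KO, against 143, 147 and 144 CPM in cNK WT and 148, 144 and 154 CPM in cNK labelled CD8KO. Its groups overlapped and its change was 0.51 ± 0.21 (adjusted p = 0.139) and 0.00 ± 0.12 (adjusted p = 0.988). Slc2a3 was higher in LrNK WT without LrNK WT replicate 3 (0.70, adjusted p = 0.00547). Without the summed sample of LrNK labelled CD8KO the Slc2a3 log2 change was -0.19, in a fit that again leaves a lone LrNK sample. Slc2a6 encodes GLUT6, which sits mainly on inner membranes. It was at 22.4, 22.2 and 17.8 CPM in LrNK WT and 54.9 and 58.1 CPM in LrNK labelled CD8KO, against 14.4, 11.5 and 14.9 CPM and 17.0, 23.5 and 18.3 CPM in the matching cNK groups. LrNK lay above cNK under both labels, with a change of 0.70 ± 0.21 (adjusted p = 0.0576) in WT and 1.66 ± 0.17 (adjusted p = 0.00254) under the CD8KO label.

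At the phosphofructokinase step the platelet isoform was lower and the liver isoform higher in LrNK. Pfkp was at 128, 115 and 117 CPM in LrNK WT and 174 and 143 CPM in LrNK labelled CD8KO, and at 421, 402 and 417 CPM in cNK WT and 416, 399 and 417 CPM in cNK labelled CD8KO. No LrNK sample came near a cNK sample, and Pfkp was 3.25-fold lower in WT (log2 change -1.70 ± 0.10, adjusted p = 0.000212) and 2.39-fold lower under the CD8KO label (-1.25 ± 0.11, adjusted p = 0.00139). Pfkl was at 102, 96.7 and 110 CPM in LrNK WT and 109 and 128 CPM in LrNK labelled CD8KO, against 80.9, 85.5 and 78.7 CPM and 76.5, 83.3 and 80.3 CPM in cNK. The difference was small but without overlap, 0.41 ± 0.10 (adjusted p = 0.0318) and 0.69 ± 0.13 (adjusted p = 0.0146), and the call was lost without any of the cNK samples (adjusted p up to 0.201 in WT and 0.0921 under the CD8KO label). Pfkm, the muscle isoform, was at 4.68 to 16.9 CPM in LrNK and 8.46 to 9.07 CPM in cNK and did not pass.

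The bifunctional enzymes that make and break fructose 2,6-bisphosphate differed from each other in direction and size. Pfkfb4 was at 20.7, 9.12 and 22.2 CPM in LrNK WT and 68.1 and 31.3 CPM in LrNK labelled CD8KO, against 2.83, 3.44 and 2.84 CPM and 3.81, 3.30 and 3.13 CPM in cNK. All LrNK samples were above all cNK samples, by 2.57 ± 0.38 (5.95-fold, adjusted p = 0.00639) and 3.97 ± 0.33 (15.7-fold, adjusted p = 0.00129) on the log2 scale. Without the libraries of few detected genes the Pfkfb4 changes were 1.69 and 3.36. Pfkfb3, the form with the strongest kinase activity, was at 47.0, 32.3 and 33.3 CPM in LrNK WT, below the 50.0, 50.4 and 50.6 CPM of cNK WT, but at 65.7 and 75.7 CPM in LrNK labelled CD8KO, above the 49.5, 49.3 and 48.8 CPM of its cNK group. The WT difference did not pass (-0.35 ± 0.16, adjusted p = 0.189). Under the CD8KO label the change of 0.65 ± 0.12 passed (adjusted p = 0.0159) but was lost without any cNK sample (adjusted p 0.0876 to 0.0915). Pfkfb2, a form known from heart, was lower in LrNK under the CD8KO label (3.20 and 3.87 CPM against 8.93, 8.50 and 10.8 CPM, log2 change -1.28 ± 0.25, adjusted p = 0.0182), a call also lost without any cNK sample (adjusted p 0.0800 to 0.105). In WT the Pfkfb2 values were 7.50, 4.92 and 4.97 CPM against 10.8, 8.32 and 10.4 CPM, without overlap and without passing (adjusted p = 0.181). Pfkfb1 stayed at or below 3.94 CPM in all samples.

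Of the isomerase and the lower steps, Gpi1, Aldoa, Gapdh, Pgk1 and Pkm were higher in LrNK under both labels, and Eno1 passed under neither. Aldoa, which splits fructose 1,6-bisphosphate, was at 510, 390 and 628 CPM in LrNK WT and 424 and 381 CPM in LrNK labelled CD8KO, against 220, 220 and 218 CPM and 220, 224 and 207 CPM in cNK. Gapdh was at 634, 639 and 751 CPM and 622 and 741 CPM in LrNK, against 325, 345 and 328 CPM and 345, 360 and 327 CPM in cNK. Both genes were without overlap, Aldoa 2.44-fold and Gapdh 2.15-fold higher in WT (adjusted p = 0.00317 and 0.00178) and 2.02-fold and 2.17-fold higher under the CD8KO label (adjusted p = 0.00189 and 0.00411). Gpi1, the isomerase after hexokinase, was at 369, 367 and 383 CPM in LrNK WT and 233, 246 and 243 CPM in cNK WT. Its log2 change was 0.72 ± 0.10 (adjusted p = 0.00474) in WT and 0.66 ± 0.12 (adjusted p = 0.0125) under the CD8KO label, where LrNK had 334 and 366 CPM and cNK 230 to 252 CPM. Without cNK WT replicate 1 or 3 the adjusted p of Gpi1 in WT was 0.0613 and 0.0547, and it was 0.0706 to 0.0819 without any sample of cNK labelled CD8KO.

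Pkm, the last step to pyruvate, was at 761, 614 and 803 CPM in LrNK WT and 936 and 829 CPM in LrNK labelled CD8KO, against 472, 497 and 469 CPM and 508, 520 and 474 CPM in cNK. The groups did not overlap, and the change was 0.68 ± 0.12 (adjusted p = 0.0109) and 0.94 ± 0.10 (adjusted p = 0.00261), the first lost without any cNK WT sample (adjusted p 0.0721 to 0.0940). Pgk1, with a change of 0.78 ± 0.20 in WT, and Tpi1 (triosephosphate isomerase), with 0.50 ± 0.12, passed narrowly (adjusted p = 0.0402 and 0.0340), and both calls were lost without LrNK WT replicate 1 (adjusted p = 0.0750 and 0.0594) or any cNK WT sample, and that of Tpi1 also without LrNK WT replicate 3 (adjusted p = 0.0555). Eno1 was among the most abundant members but was not called under either label (0.34 ± 0.19 and 0.49 ± 0.16, adjusted p = 0.276 and 0.0762), with 695, 516 and 918 CPM in LrNK WT and 574, 619 and 574 CPM in cNK WT. Pgam1, Eno3, Aldoc and Pgk1 were called as higher under the CD8KO label with log2 changes of 0.75 ± 0.18, 1.44 ± 0.33, 2.04 ± 0.41 and 0.76 ± 0.16, and each call was lost without any cNK sample (adjusted p 0.0659 to 0.130). The Eno3 change was 0.74 without replicate 1 of LrNK labelled CD8KO.

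Lactate dehydrogenase B had the largest ratio of all members in WT. Ldhb, whose subunit favours lactate use over lactate formation, was at 13.0, 8.89 and 9.63 CPM in LrNK WT and 12.9 and 8.58 CPM in LrNK labelled CD8KO. In cNK it was at 0.262, 0.0138 and 0.149 CPM in WT, 27 counts over the 3 libraries, and 0.267, 0.168 and 0.472 CPM under the CD8KO label. The log2 change was 6.28 ± 0.98 (adjusted p = 0.00754) and 5.26 ± 0.51 (adjusted p = 0.00200). Ldhb stood apart without overlap, and in WT its adjusted p was 0.0538 without cNK WT replicate 3 and its log2 change 7.06 and 5.69 without replicate 1 and 2. Ldha, the main form, was at 450, 296 and 474 CPM in LrNK WT and 444 and 388 CPM in LrNK labelled CD8KO, against 324, 330 and 301 CPM and 332, 344 and 309 CPM in cNK. Its WT groups overlapped and did not pass (0.43 ± 0.17, adjusted p = 0.126), and the CD8KO-labelled groups did not overlap and passed (0.46 ± 0.10, adjusted p = 0.0255), a call lost without any cNK sample (adjusted p 0.107 to 0.128).

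Of the lactate carriers, Slc16a3 passed under both labels and Slc16a1 under neither. Slc16a3 encodes MCT4, known for lactate export from glycolytic cells. It was at 35.7, 21.5 and 48.0 CPM in LrNK WT and 83.7 and 55.6 CPM in LrNK labelled CD8KO, against 5.88, 8.27 and 7.51 CPM and 8.27, 9.60 and 6.97 CPM in cNK. All LrNK samples were above all cNK samples, 5.08-fold in WT (log2 change 2.35 ± 0.31, adjusted p = 0.00397) and 9.09-fold under the CD8KO label (3.18 ± 0.22, adjusted p = 0.000762). Without the libraries of few detected genes the WT change of Slc16a3 was 1.68. Slc16a1 encodes MCT1, which carries lactate both ways. It was at 0.329, 4.96 and 8.56 CPM in LrNK WT, 11.0 and 15.5 CPM in LrNK labelled CD8KO, 9.31, 7.47 and 8.67 CPM in cNK WT and 8.74, 9.40 and 10.1 CPM in cNK labelled CD8KO. The change was -0.79 ± 0.95 in WT (adjusted p = 0.637) and 0.63 ± 0.23 under the CD8KO label (adjusted p = 0.101).

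Among the kinases that switch off pyruvate dehydrogenase, Pdk1 was higher in LrNK. It was at 59.6, 37.6 and 34.6 CPM in LrNK WT and 44.0 and 37.6 CPM in LrNK labelled CD8KO, against 21.1, 18.8 and 25.6 CPM and 26.4, 30.7 and 26.8 CPM in cNK, without overlap under either label. The change was 1.09 ± 0.24 (adjusted p = 0.0234) and 0.66 ± 0.12 (adjusted p = 0.0155), and each call was lost without any cNK sample of that label (adjusted p up to 0.116 and 0.0953). Pdk2 at 8.35 to 22.6 CPM and Pdk3 at 16.4 to 36.6 CPM in LrNK were not called. Hif1a was at 67.2, 46.3 and 48.5 CPM in LrNK WT and 107 and 68.4 CPM in LrNK labelled CD8KO, against 49.5, 46.9 and 43.9 CPM and 47.8, 53.1 and 51.9 CPM in cNK. Its WT groups overlapped (0.28 ± 0.16, adjusted p = 0.282). Under the CD8KO label they did not, with 0.90 ± 0.17 (adjusted p = 0.0171), lost without any cNK sample (adjusted p 0.0774 to 0.0903).

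Isoform makeup was described as shares of each family's CPM per kb, which use the annotated exon length and carry no test. Pfkp made up 67.5% ± 1.2 (SD, n = 3) of phosphofructokinase in cNK WT and 31.8% ± 2.49 (n = 3) in LrNK WT, where Pfkl had the largest share per kb at 54.6% ± 1.46. The same shift stood under the CD8KO label, with Pfkp at 67.7% ± 1.1 (n = 3) in cNK and 37.5% ± 6.69 (n = 2) in LrNK. The order of Pfkl and Pfkp in LrNK rests on the annotated exon lengths, 6675 and 13401 bases. In plain CPM Pfkp was above Pfkl in every LrNK sample. Hk2 was 1.83% ± 0.178 of hexokinase in cNK WT and 9.11% ± 3.84 in LrNK WT. Its share was 24.6% ± 0.287 in LrNK labelled CD8KO, where Hk1 made up 49.8% ± 3.91, against 82.7% ± 1.05 in the matching cNK group. Pfkfb4 was 6.75% ± 0.899 of its family in cNK WT and 34.8% ± 8.67 in LrNK WT. Slc16a3 held 41.4% ± 6.75 of the 2 lactate carriers in cNK WT and 86.5% ± 10.9 in LrNK WT, and Ldhb 0.0947% ± 0.0813 and 5.27% ± 1.01 of lactate dehydrogenase.

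**Figure D3:**
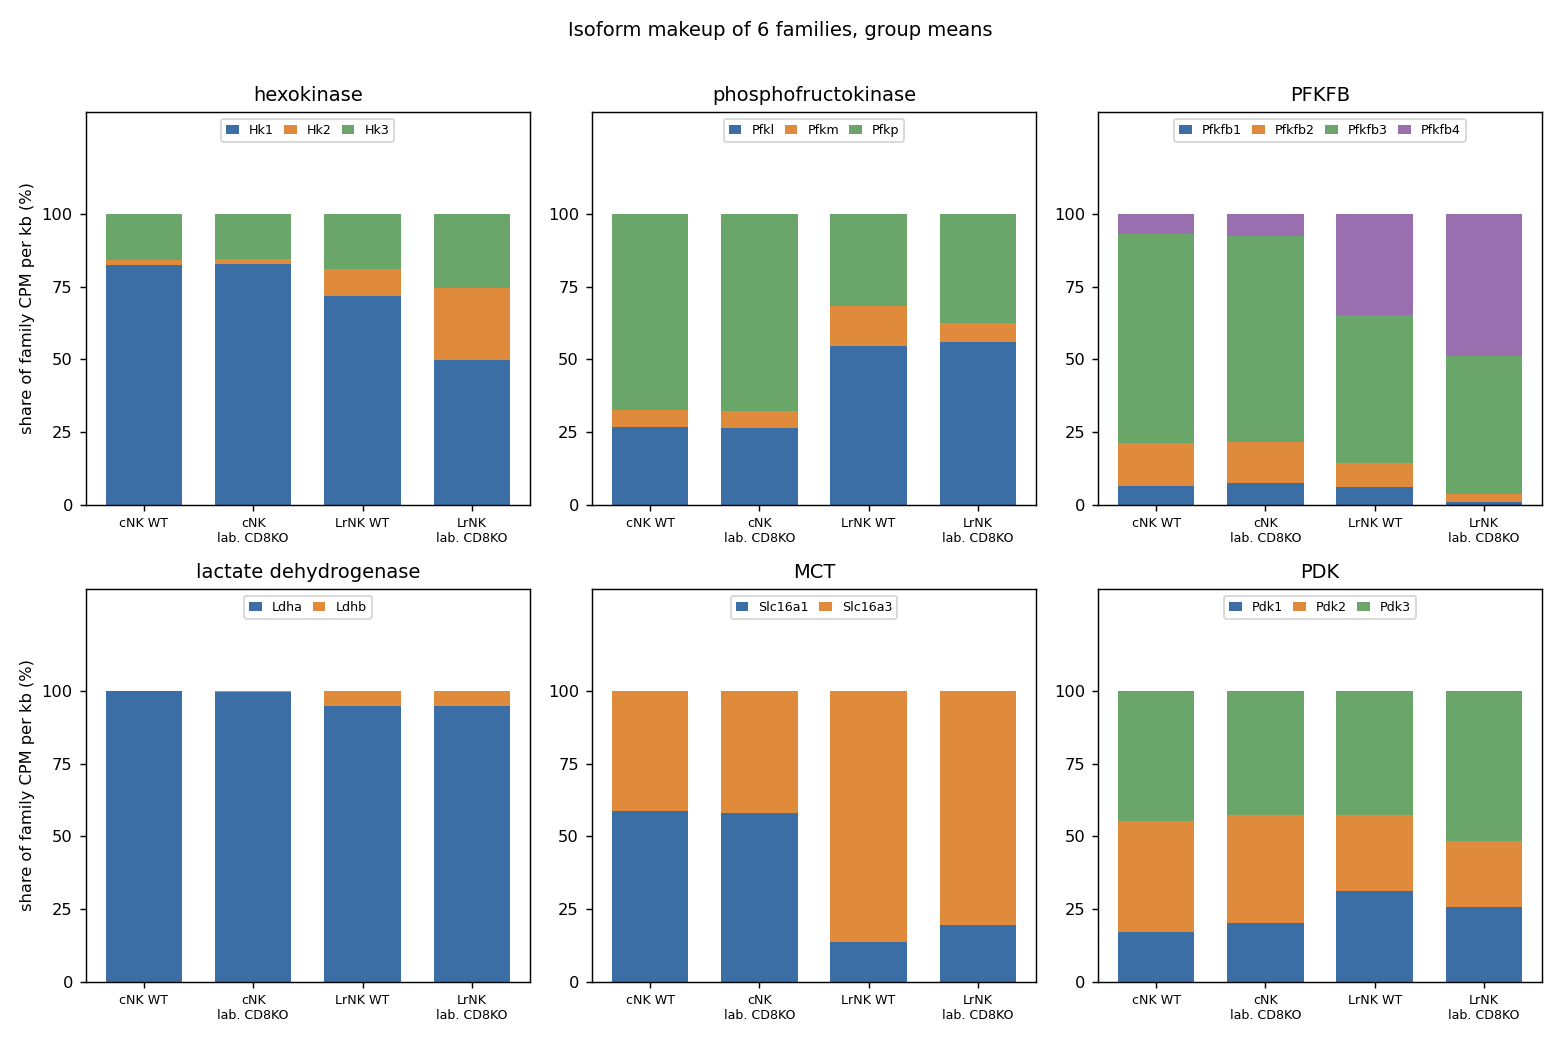
Share of each isoform in its family's CPM per kb (vertical axis, %, from 0), as group means, for hexokinase, phosphofructokinase, the Pfkfb enzymes (PFKFB), lactate dehydrogenase, monocarboxylate carriers (MCT) and pyruvate dehydrogenase kinases (PDK). Per kb of annotated exon, Pfkl and Pfkp change places as the largest phosphofructokinase share between cNK and LrNK, although Pfkp is above Pfkl in plain CPM in every LrNK sample. The Hk2, Pfkfb4, Ldhb and Slc16a3 shares are larger in both LrNK groups.

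Transcripts of other cells moved with the difference between LrNK and cNK. The 10 neutrophil and monocyte markers summed to 2330, 911.2 and 3885 CPM in LrNK WT and 7834 and 2325 CPM in LrNK labelled CD8KO, against 15.35 to 23.25 CPM in cNK. Lyz2 (lysozyme) made up most of the sum at 520 to 7410 CPM. Mmp9, a gelatinase, was at 163 to 423 CPM in LrNK and at most 0.226 CPM in cNK, Csf3r, the G-CSF receptor, at 10.8 to 137 CPM, and Cd14, the endotoxin co-receptor, at 23.6 to 112 CPM, and all 4 genes were called as higher under both labels. Of the other markers, Ly6g was at 0 in 4 of 5 LrNK samples and S100a8, Ngp and Retnlg were at most 6.21 CPM, with Retnlg at 0 in all LrNK WT samples. S100a9, Retnlg and S100a8 were called as higher in LrNK by edgeR under the CD8KO label only (5.70 ± 1.19, 6.59 ± 1.51 and 4.95 ± 1.33, adjusted p = 0.0210, 0.0276 and 0.0445). Hepatocyte markers, led by Alb, summed to 27.04 to 57.94 CPM in LrNK and 0.9902 to 1.44 CPM in cNK, erythroid markers to 152.5 to 3271 CPM and 3.102 to 5.664 CPM, and T-cell markers to 366 to 760.8 CPM and 33.15 to 160.9 CPM. The T-cell list includes Cd8a, which made up most of its sum in cNK labelled CD8KO (134.9 to 160.9 CPM, against 33.15 to 38.71 CPM in cNK WT). Kupffer markers summed to 112 to 439 CPM in LrNK and 166.2 to 251.7 CPM in cNK, overlapping. Single Kupffer markers were still called as higher in LrNK by edgeR: Clec4f under both labels (12.57 ± 1.47 and 12.50 ± 1.57, adjusted p = 0.00826 and 0.0148). Adgre1 (2.06 ± 0.40, adjusted p = 0.0173) and C1qb (0.95 ± 0.25, adjusted p = 0.0429) were called under the CD8KO label only. In the LrNK WT sample with the lowest neutrophil and monocyte sum (replicates 2 and 4), Hk2 was at 10.3, Pfkfb4 at 9.12, Slc16a3 at 21.5 and Ldhb at 8.89 CPM, all above every cNK sample, and Hk3, at 14.9 CPM, was not. For Hk2, Pfkfb4, Slc16a3 and Ldhb every LrNK sample lay above every cNK sample, so this position was fixed beforehand and only the levels are described. The marker sum of that sample, 911.2 CPM, was also still far above the cNK sums. The part of these cells in the differences was not tested.

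Within LrNK, samples labelled CD8KO were compared with WT to ask what the genotype label changes in these genes. None of the 32 members passed, as none of the 16504 genes tested did (0% called, with 615 genes and 7 members at an unadjusted p under 0.05 by edgeR). DESeq2 called 59 genes, of which 2 were members, and limma voom called no member. Hk2, Slc2a6, Pfkfb4, Pfkfb3, Slc16a3 and Hif1a nevertheless had both CD8KO-labelled samples above all 3 WT samples, with the values given above. In all, 11 members lay above and 2 below without overlap (40.6% of those tested, against 18.3% of all genes, 9.84% above and 8.47% below), and the median log2 difference was 0.22 over the members and 0.02 over all genes.

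Slc2a6 had the smallest p, with a log2 difference of 1.46 ± 0.26 (2.74-fold, adjusted p = 0.950). Hk2 followed with 1.86 ± 0.42 (3.63-fold) and Pfkfb3 with 0.94 ± 0.25 (1.92-fold), each at an adjusted p of 1.00. Pfkfb4 differed by 1.53 ± 0.44, Slc16a3 by 1.01 ± 0.34 and Hif1a by 0.71 ± 0.26. In one fit of all 4 groups, which shares the spread with the tighter cNK samples, Slc2a6 (adjusted p = 0.0151) and Pfkfb3 (0.0326) passed. With DESeq2, Slc2a6 (0.00324) and Hk2 (0.0388) passed. Without a filter on low counts Slc2a6, Hk2 and Pfkfb4 did, and with all libraries kept apart Slc2a6 alone did. The biological coefficient of variation of this comparison was 98.2%, against 9.60% between the cNK groups.

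The same members were read within the libraries of like gene detection, where 1 CD8KO-labelled sample faces 2 WT samples (few detected genes) or 1 (the summed pairs). These members are those with both CD8KO-labelled samples above all WT samples and an unadjusted edgeR p under 0.05. Hk3, Pfkp, Pkm, Slc16a1 and Eno2 also lay above all WT samples, with a larger p. A positive difference in each set, or in any pair of samples, was thus fixed beforehand, and only its size is described. Slc2a6 differed by 1.44 and 1.37 on the log2 scale, Hk2 by 1.46 and 2.97, Pfkfb3 by 0.71 and 1.21, Pfkfb4 by 1.66 and 1.76, Slc16a3 by 0.99 and 1.35 and Hif1a by 0.88 and 0.55. The neutrophil and monocyte sum was higher under the CD8KO label in both sets as well, 7834 CPM against 2330 and 3885 CPM, and 2325 against 911.2 CPM. A pair of samples with nearly equal sums, chosen after the values were seen, was LrNK WT replicate 1 (2330 CPM) and the summed sample of LrNK labelled CD8KO (2325 CPM), which differ in gene detection. Between them Hk2 went from 29.0 to 81.2 CPM (2.80-fold), Slc2a6 from 22.4 to 58.1 (2.59-fold), Pfkfb3 from 47.0 to 75.7 (1.61-fold) Slc16a3 from 35.7 to 55.6 (1.56-fold) and Pfkfb4 from 20.7 to 31.3 (1.51-fold), whereas Hk3 went from 39.9 to 45.8 (1.15-fold) and Hif1a from 67.2 to 68.4 (1.02-fold). Genes outside these differed as much in this pair, Slc2a1 from 55.7 to 150 CPM (2.69-fold), Slc16a1 from 0.329 to 15.5 CPM, Slc2a3 from 220 to 146 CPM (0.664-fold) and Pdk1 from 59.6 to 37.6 CPM (0.631-fold). Pan-NK markers summed to 8078 to 10100 CPM in LrNK WT and 5376 to 6848 CPM in LrNK labelled CD8KO. Sums of resident-cell markers (1097 to 1694 against 787.6 to 971.3 CPM), T-cell markers (645.1 to 760.8 against 366 to 369.1 CPM) and plasma-cell markers (1.927 to 21.11 against 30.09 to 40.55 CPM) did not overlap between WT and the CD8KO label either, and the erythroid sum in the chosen pair was 306.5 against 3271 CPM. The lower T-cell sum, which includes Cd8a, was not shared by most of its genes: 7 of 8 had a positive log2 difference (median 0.68), and none was called. B-cell sums overlapped (238 to 365 against 319.1 to 418.4 CPM), but all 8 B-cell markers had a positive difference (median 3.23), again with none called. The part of cell makeup in these differences was not tested.

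**Figure D4:**
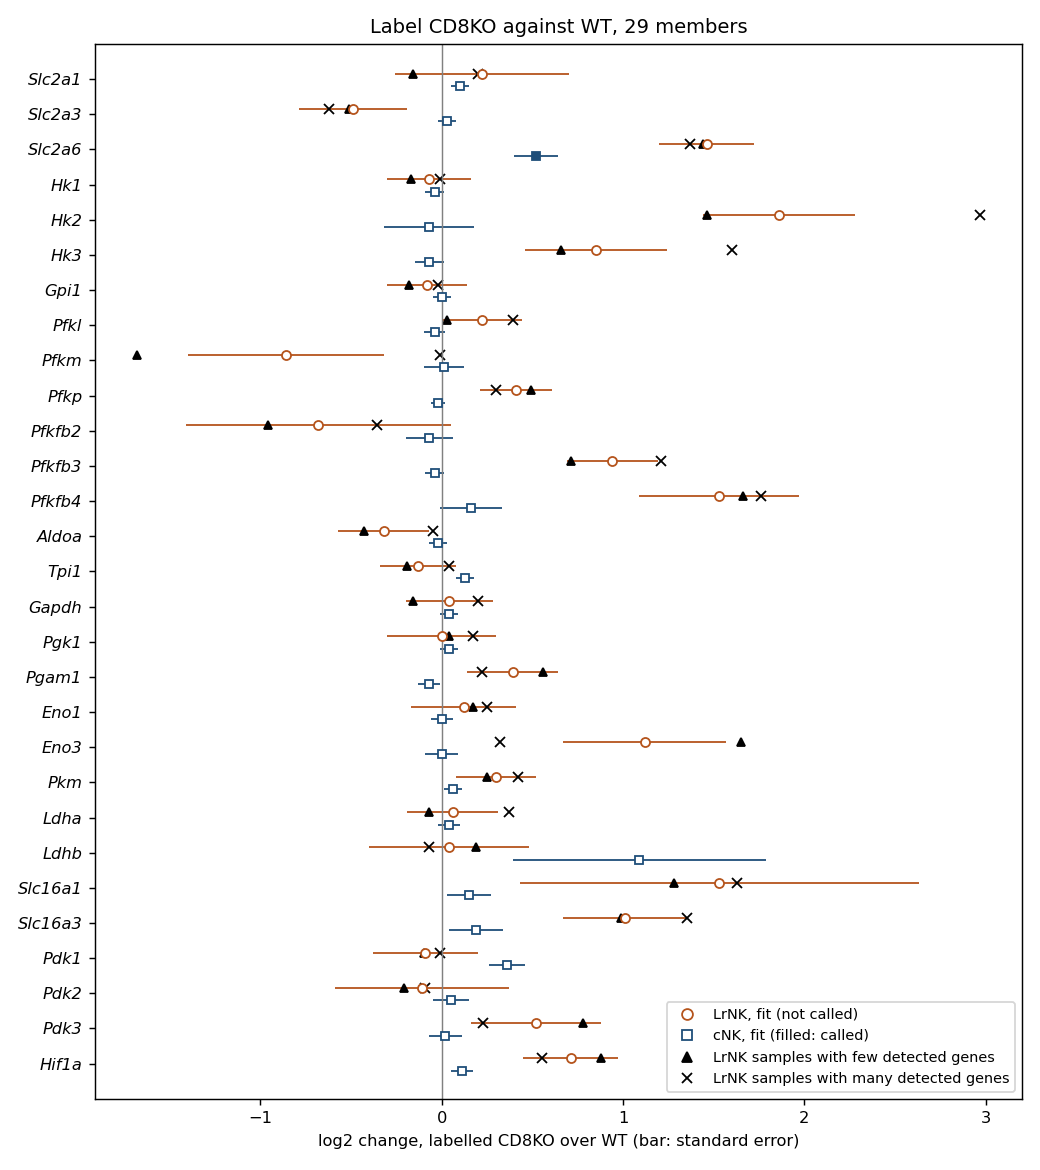
Log2 difference of samples labelled CD8KO over WT (horizontal axis) for 29 members, leaving out Pfkfb1, Aldoc and Eno2, which are low; circles are the LrNK fit, squares the cNK fit, bars standard errors, and black marks the LrNK difference within libraries of few (triangles) or many (crosses) detected genes. Hk2, Slc2a6, Pfkfb4, Slc16a3 and Pfkfb3 lie right of 0 in LrNK by all 3 marks, which follows from both CD8KO-labelled samples lying above all WT samples. Nearly all cNK squares lie close to 0.

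Between the cNK groups 1 member passed. Slc2a6 was at 14.4, 11.5 and 14.9 CPM in WT and 17.0, 23.5 and 18.3 CPM under the CD8KO label, without overlap, a log2 difference of 0.52 ± 0.12 (1.44-fold, adjusted p = 0.0474). That is 1 of 31 members tested (3.23%), against 1.31% of 16619 genes (0.499% higher and 0.812% lower). Without regard to the test, 4 members lay above and 1 below without overlap (16.1%), where 18.0% of all genes did (9.68% above and 8.35% below). The call lay close to the threshold and was lost without cNK WT replicate 1, 2 or 3 (adjusted p = 0.133, 0.105 and 0.0524), without replicate 2 or 3 of cNK labelled CD8KO (0.309 and 0.0570), with limma voom (0.0508) and in the fit of all groups (1.00). Pdk1, with 0.36 ± 0.10 (adjusted p = 0.0942), and Tpi1, with 0.13 ± 0.05 (adjusted p = 0.304), had the next smallest p and did not pass. Ldhb had the largest difference of the members, 1.09 ± 0.70 (adjusted p = 0.550), at levels of at most 0.472 CPM, and did not pass. Hk1, Pfkp, Pfkfb3, Aldoa, Gapdh, Eno1, Pkm and Ldha all had log2 differences between -0.04 and 0.06, with standard errors of 0.04 to 0.06. Other members at such levels lay outside that range without passing: Tpi1, Slc2a1 (0.10 ± 0.05, without overlap), Hif1a (0.11 ± 0.06) and Pgam1 (-0.07 ± 0.06). The members' median was 0.04.

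Whether the CD8KO label went with a different change in LrNK than in cNK was tested as an interaction in a fit of all 4 groups. No member passed by edgeR, where 0.0415% of 19287 genes did (8 genes, 0.00518% higher and 0.0363% lower), and 8 members had an unadjusted p under 0.05. Pfkfb3 came nearest, with 1.00 ± 0.21 on the log2 scale (adjusted p = 0.223), followed by Slc2a6 with 0.96 ± 0.27 (adjusted p = 0.333) and Hk2 with 1.96 ± 0.57 (adjusted p = 0.363). Without the LrNK libraries with few detected genes, the log2 difference was 1.29 for Pfkfb3, 3.07 for Hk2, 1.71 for Hk3 and 1.65 for Pfkfb4. That fit has 1 sample in each LrNK group and takes its spread from cNK alone, so only sizes are given here. Without the summed LrNK WT sample Pfkfb3 passed by edgeR (0.95, adjusted p = 0.0497), in a fit where 645 of 18624 genes passed.

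Lists of neighbouring pathways were read in the same fits, in which 10.9% of all genes were called higher and 9.83% lower in LrNK WT, and 15.4% and 11.6% under the CD8KO label. The called counts of the lists below rest on at most 4 genes in a direction and are given as a description. In the pentose phosphate pathway, which branches off at glucose 6-phosphate, 4 of 7 genes were higher in LrNK under each label and none lower. Tkt (transketolase) was at 298, 195 and 270 CPM in LrNK WT and 138 to 154 CPM in cNK WT (0.87 ± 0.15, adjusted p = 0.0107), and Pgls, the lactonase, differed by 0.93 ± 0.15 (adjusted p = 0.00915). Under the CD8KO label Tkt differed by 1.41 ± 0.20 (adjusted p = 0.00638) and Pgd, the 6-phosphogluconate dehydrogenase, by 1.05 ± 0.16 (adjusted p = 0.00751). Of 10 glycogen genes, Pygl, the liver form of glycogen phosphorylase, was higher in both comparisons (3.06 ± 0.20 and 2.90 ± 0.36, adjusted p = 0.000317 and 0.00410), with 64.5 to 100 CPM in LrNK WT and 8.72 to 11.2 CPM in cNK WT. Ppp1r3b, which targets a phosphatase to glycogen, was the other glycogen gene called, higher under the CD8KO label (0.86 ± 0.18, adjusted p = 0.0214). Of 5 serine genes, Phgdh, the entry to serine synthesis, was higher under both labels (0.60 ± 0.10 and 0.47 ± 0.10, adjusted p = 0.0110 and 0.0259).

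Of 18 other genes of the hypoxia pathway tested, 1 was higher and 4 lower in LrNK WT, and 4 higher and 3 lower under the CD8KO label. Ndrg1, a hypoxia-induced gene, was lower in WT (-2.10 ± 0.50, adjusted p = 0.0297), and Kdm3a, a histone demethylase, was lower under both labels (-0.55 ± 0.14 and -0.69 ± 0.13, adjusted p = 0.0328 and 0.0145). Mxi1, a partner of Max, was higher under the CD8KO label (1.11 ± 0.18, adjusted p = 0.0101). So genes of this list did not share a direction, and their median log2 change was -0.01 in WT and 0.44 under the CD8KO label. In the Myc and mTOR list, Eif4ebp1, a brake on translation, was higher under both labels (1.40 ± 0.20 and 2.05 ± 0.20, adjusted p = 0.00571 and 0.00189), as was the amino acid carrier subunit Slc3a2 (1.61 ± 0.44 and 2.05 ± 0.44, adjusted p = 0.0440 and 0.0228), and Slc7a5, its partner, under the CD8KO label (2.41 ± 0.42, adjusted p = 0.0120). The list had 2 of 15 higher in WT and 3 of 16 higher with 1 lower under the CD8KO label.

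Around pyruvate dehydrogenase, the phosphatase Pdp1 was lower in LrNK under both labels (-0.82 ± 0.23 and -0.89 ± 0.14, adjusted p = 0.0468 and 0.00948), as was its regulator Pdpr under the CD8KO label (-1.38 ± 0.15, adjusted p = 0.00258). In WT, 1 of 10 genes of this list was called, and under the CD8KO label 2 of 11 were higher and 2 lower. Isoforms outside the 32 included Slc2a8, a glucose carrier of inner membranes, at 39.8, 46.5 and 52.6 CPM in LrNK WT and 6.95 to 9.16 CPM in cNK WT (2.66 ± 0.19, adjusted p = 0.000486). Pck1, a gluconeogenic enzyme of hepatocytes, was at 1.16 to 6.56 CPM in LrNK, with no count in any cNK library. Fbp1, another gluconeogenic enzyme, was higher under the CD8KO label (5.95 ± 1.13, adjusted p = 0.0158). Pck1 has the same direction as the hepatocyte sum, whose part was not tested. Between the cNK groups 2 genes of these lists were called, P4ha1, a collagen prolyl hydroxylase (-0.70 ± 0.11, adjusted p = 0.00501), and Pgm2, a phosphoglucomutase (-0.32 ± 0.07, adjusted p = 0.0275), both lower under the CD8KO label, and between the LrNK groups none was.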

How the data were processed

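RNA of sorted cells was sequenced (Illumina TruSeq RNA kit, per the labels' protocols). The authors deposited raw counts per Ensembl gene for each library, and HISAT2 2.1.0 and GRCm38 are named in the submitters' processing notes. For counting, the name of the tool, the annotation and the use of strand were not given in the sources used here. Among counts from 1 to 20, 49.5% to 65.2% were even.

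Of 54532 gene IDs, 54495 matched a GENCODE M21 name. Libraries of a group with a chi-square per degree of freedom under 4 (3.04 and 2.67, against 196 to 283 for the other LrNK pairs) were summed, leaving 11 samples of 13 libraries. Counts were tested with edgeR 4.0.16 in R 4.3.3 (TMM scaling, filterByExpr with a minimum count of 10 and minimum total of 15, quasi-likelihood test), over the groups compared, or all 4 for the difference of differences, and p-values were adjusted by Benjamini-Hochberg over all genes tested. Levels are plain CPM, divided by exon length to compare genes. The standard error is the log2 change over the square root of F. Scripts were tested on simulated data. Alternatives were limma 3.58.1 (voom), DESeq2 1.42.0, RLE scaling, no filter, all libraries apart, 1 fit of all groups, a replicate block and leaving out samples.

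The members and gene lists were chosen with earlier results of these data known. All members are accounted for: per-sample CPM is given for the uptake, committed and exit steps, Hif1a and up to 8 called members a comparison, the 3 smallest p where fewer than 3 were called, and in each other list the 2 called genes with the smallest p.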

Additional observations from a re-analysis of the deposited data

Results flagged for a closer look

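For Pfkfb3 the samples labelled CD8KO lay on opposite sides of WT in the LrNK and cNK groups, and neither change passed. Both LrNK samples labelled CD8KO (65.7 and 75.7 CPM) were above all 3 LrNK WT samples (32.3 to 47.0 CPM), while the cNK samples labelled CD8KO (48.8 to 49.5 CPM) were all slightly below the cNK WT samples (50.0 to 50.6 CPM). The difference between the log2 changes was 1.00 ± 0.21 and did not pass edgeR's quasi-likelihood test (adjusted p = 0.223). The cNK change was -0.04 ± 0.05 (adjusted p = 0.817), smaller than its standard error.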

How the results depend on the processing

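The counts of members called moved with the samples and the fit more than with the scaling, since RLE scaling left all 5 counts as they were. Between the LrNK groups (0 called) the count was 2 in the fit of all 4 groups, 3 without a filter, 2 with DESeq2, 1 with all libraries apart and 0 with limma voom or without any sample, and the genes called overall went from 0 to 138, 259, 59 and 22 under the first 4. Between the cNK groups (1 called) it was 0 in the fit of all groups, 2 without a filter, 2 with DESeq2, 0 with voom and 0 to 1 when samples were left out, with 218 genes overall becoming 1, 590, 514, 222 and 71 to 254. In WT, LrNK against cNK (13 called) gave 6 to 17 when samples were left out (13, 17 and 15 without LrNK WT sample 1, 2+4 and 3) and 23 without libraries of few detected genes (3414 genes overall became 1021 to 6856 and 11526). Under the CD8KO label (21 called) it gave 10 to 30 (4804 genes became 1688 to 13004) and 27 without those libraries (10872 genes). The difference of differences (0 called) gave 2 with DESeq2 (Pfkp, adjusted p = 0.00874, and Pfkfb3, 0.00136), 1 with all libraries apart, 13 without libraries of few detected genes and 0 to 1 when samples were left out (8 genes became 337, 68, 2866 and 5 to 645). Fits with a lone LrNK sample assume that it varies like the other groups. For Slc2a3 under the CD8KO label, the log2 change was -0.19 without the summed LrNK sample. The cause of these changes was not tested. Leaving out libraries of few detected genes was not run between the LrNK groups, where no residual degrees of freedom remain, or between the cNK groups, which hold none.

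Deviations of same-numbered samples correlated at only -0.04 to 0.21 between the cNK groups and -0.08 to 0.04 between LrNK and cNK, so replicate numbers did not pair these samples. Between the LrNK groups they correlated at 0.40 and 0.61 (2 pairs). There, same-numbered samples were also alike in having few or many detected genes, and whether the numbers mark a pairing was not tested. With a replicate block the members called were 1 between the LrNK groups (Pfkfb4, adjusted p = 0.0382), 1 between the cNK groups, 8 for LrNK against cNK in WT, 11 under the CD8KO label and 0 for the difference, and genes called overall were 180, 355, 1801, 2162 and 6.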
